A study of Mus musculus with 4 samples.

Results

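The genes described here encode high mobility group chromatin proteins: Hmgn1, Hmgn2 and Hmgn3, Hmga1, and Hmgb1, Hmgb2 and Hmgb3. They were measured in granulocyte/monocyte progenitors (GMP), the bone marrow cells that give rise to granulocytes and monocytes. Every probe set whose platform symbol is or includes one of the 7 genes was taken, in both array types and each probe set separately. This gave 16 of the 45101 probe sets of the larger array, for 6 of the 7 genes, out of 19324 gene symbols on that array. No probe set carries Hmga1 in the annotation used here, so Hmga1 has no value. Hmgn1 was put on the list because it was lower on several probe sets in the same comparison, so its differences are given as a description. No p-value is given for it, and nothing is read from whether its probe sets passed a threshold. The other genes were added as its family, also with earlier results of these data known.

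The study compared GMP purified by flow cytometry from Icsbp-deficient and from wild type mice. The Icsbp protein, whose gene is Irf8, belongs to the interferon regulatory factors and helps to set whether progenitors become monocytes or granulocytes. Each genotype has 2 arrays, 1 of the Affymetrix 430A type and 1 of the larger MOE430_2 type, and every array read its own pool of marrow, taken from 8 or more Icsbp-deficient mice or from 10 or more wild type mice. The mice were 10 to 16 weeks old. The wild type 430A sample comes from a mixed C57/Bl6 and S129Ola background, and its place among the wild type samples rests on the series' design text, since its own label names no genotype. The sources used here do not give the background of the other 3 samples, the deleted part of Icsbp or any other allele. An ENZO kit was used to label the RNA of the Icsbp-deficient 430A array and a one-cycle kit for the 2 MOE430_2 arrays, while the kit for the wild type 430A array is not stated. Whether the kit differed between genotypes on the 430A arrays is therefore unknown.

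High mobility group proteins are small, abundant, non-histone proteins that bind chromatin and move on and off it quickly. The HMGN proteins bind the nucleosome itself and compete there with linker histone H1, which loosens the chromatin fibre. HMGA proteins bind the minor groove of AT-rich DNA through short AT hooks. HMGB proteins bend DNA with their HMG boxes, and HMGB1 also acts outside the cell as an alarm signal once it is released.

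Icsbp-deficient GMP had lower Hmgn1 signals than wild type GMP on 3 of 3 tested probe sets and on both array types, at 1.73-fold to 2.08-fold lower. All 3 passed limma's threshold in that direction, as did 2.14% of all tested probe sets, and nothing is read from this since Hmgn1 was chosen on these values. No other member passed the test. Hmgb3 came nearest, 1.41-fold lower. Hmgn3 was at ratios below 0 on both of its probe sets, and Hmgn2, Hmgb1 and Hmgb2 were at ratios near 0.

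The promoter windows of 4 members are printed here. They were picked because the mean ratios of Hmgn1 were lower than that of its closest relative Hmgn2, and that of Hmgb3 lower than those of Hmgb2. No test compared members with each other. Each window runs from 250 bases before to 50 bases after the annotated start, read 5′ to 3′ in the direction of the gene, from RefSeq on GRCm38.p6. Capitals mark CCAAT boxes, the letters CCAAT on either strand.
Hmgn1 (chr16:96127676-96127975, strand -): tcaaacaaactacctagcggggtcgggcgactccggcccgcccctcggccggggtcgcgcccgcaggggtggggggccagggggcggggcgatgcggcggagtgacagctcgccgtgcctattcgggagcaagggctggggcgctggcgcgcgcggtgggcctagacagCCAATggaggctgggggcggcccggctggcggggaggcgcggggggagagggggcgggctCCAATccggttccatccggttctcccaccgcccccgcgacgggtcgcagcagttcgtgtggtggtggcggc
Hmgn2 (chr4:133967942-133968241, strand -): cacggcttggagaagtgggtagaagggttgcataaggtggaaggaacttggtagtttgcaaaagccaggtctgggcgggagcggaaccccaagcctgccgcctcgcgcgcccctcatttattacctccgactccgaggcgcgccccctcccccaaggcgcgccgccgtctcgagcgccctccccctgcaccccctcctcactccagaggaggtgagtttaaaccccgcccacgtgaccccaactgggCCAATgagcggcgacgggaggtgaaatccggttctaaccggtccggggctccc
Hmgb2 (chr8:57511593-57511892, strand +): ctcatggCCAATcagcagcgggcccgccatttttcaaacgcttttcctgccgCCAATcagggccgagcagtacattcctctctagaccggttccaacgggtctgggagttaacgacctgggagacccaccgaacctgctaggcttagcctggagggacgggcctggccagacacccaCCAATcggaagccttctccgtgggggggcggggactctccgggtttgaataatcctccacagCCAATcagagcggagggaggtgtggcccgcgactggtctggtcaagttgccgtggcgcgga
Hmgb3 (chrX:71555667-71555966, strand +): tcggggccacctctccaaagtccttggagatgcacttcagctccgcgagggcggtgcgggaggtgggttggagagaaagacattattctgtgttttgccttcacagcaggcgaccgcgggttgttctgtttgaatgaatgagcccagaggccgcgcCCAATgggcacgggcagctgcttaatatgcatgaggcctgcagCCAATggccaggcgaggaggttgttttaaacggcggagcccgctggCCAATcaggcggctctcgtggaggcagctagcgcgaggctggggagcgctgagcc
All matches of CCAAT in these 4 windows lay on the gene's own strand. Hmgn1 held 2, with first bases at -81 and -21 from the start, and Hmgn2 held 1, at -3. Hmgb2 held 4, at -243, -198, -73 and -11, and Hmgb3 held 3, at -94, -51 and -5. Of the 32851 windows RefSeq gives, 37.4% hold CCAAT on either strand, and 5 of the 8 windows of the members do. RefSeq gave these 8 windows for 6 of the 7 genes, with 2 each for Hmga1 and Hmgb1 and none for Hmgn3.

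The GC box GGGCGG, searched on both strands, occurred 5 times in the Hmgn1 window and 2 times in that of Hmgn2. It occurred once each in the windows of Hmgb2 and Hmgb3. In all, 7 of the 8 windows of the members and 35.7% of all windows hold it. No GC box overlapped a CCAAT box in the members' windows. The interferon-type element, GAAA followed after any 2 bases by another GAAA, is the kind of sequence that interferon regulatory factors bind. It was in 0 of the 8 windows on either strand and in 3.44% of all windows. A match or its absence describes these letters in these windows only.

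Signals are given on a scale where every array has a trimmed mean of 500 over the probe sets that both array types share. A ratio sets the Icsbp-deficient array against the wild type array of its type, as log2 after adding an offset of 50, so each array type gives 1 ratio. The error given as ± is limma's moderated standard error of the mean of n = 2 ratios, most of which is borrowed from other probe sets. Of 13576 probe sets tested, 696 or 5.13% had an adjusted p under 0.05 with limma, 406 of them higher in Icsbp-deficient GMP (2.99%) and 290 lower (2.14%). At an unadjusted p under 0.05 there were 2522 of the 13576 probe sets in either direction. Counts of list genes at that p below are split by direction. No such share over all genes was computed, so these counts have no direct background. The median log2 ratio over all tested probe sets was -0.01. Of the 16 probe sets of the members, 15 were on both array types and 14 passed the filter on low signals. The 2 that were not tested are the dim Hmgn1 probe set 1422496_at and an Hmgb2 probe set found only on the larger array.

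The 2 Irf8 probe sets still gave scaled signals of 1892 to 3234 in Icsbp-deficient GMP and 1847 to 4798 in wild type GMP, and without the position of the deletion they do not check the labels. All 10 GMP markers passed the filter on low signals, and of these limma called Cebpa and Fcgr3 higher and Cd34 lower, at a list median of 0.03. Markers of other cells moved between the genotypes. Limma called 9 of 11 mature neutrophil markers higher, and all 11 had ratios above 0. Their summed signals were 35683 and 67890 in Icsbp-deficient and 11839 and 21449 in wild type GMP (430A and MOE430_2 arrays). It called 8 of 8 tested basophil, mast cell and eosinophil markers lower (2253 and 2301 against 6328 and 9001). Of the tested stem and multipotent markers it called 4 of 6 lower (3172 and 3656 against 6556 and 8878), and all 6 had ratios below 0. Cd34 is counted in this list as well as among the GMP markers. All 7 tested erythroid genes had ratios below 0, at a median of -0.73, and limma called 2 of them lower, with 5 lower at an unadjusted p under 0.05. Of the other lists, limma called 2 of 9 monocyte and macrophage genes higher and 4 lower (3 and 4 at an unadjusted p under 0.05), and 1 of 4 megakaryocyte genes lower (2 at an unadjusted p under 0.05). It called 0 of 3 B cell genes, of which 2 were higher at an unadjusted p under 0.05. The T and NK cell list had 0 tested members, with Cd2, Cd3d, Cd3g, Cd4, Cd8a and Ncr1 under 50 on all 4 arrays. In sorted bulk cells a lower signal from fewer cells of a kind and from less RNA per cell cannot be told apart, and the part of these cell types in the values of the members was not tested.

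Hmgn1 encodes a nucleosome-binding protein that loosens chromatin. Its probe set 1422495_a_at had, on the 430A and MOE430_2 arrays, scaled signals of 2934 and 2660 in Icsbp-deficient GMP, against 5000 and 4676 in wild type GMP. Both Icsbp-deficient arrays lay below both wild type arrays, and nothing is read from this order, since Hmgn1 was chosen on these values. The log2 ratios were -0.76 (430A) and -0.83 (MOE430_2), and the mean was -0.79 ± 0.11, or 1.73-fold lower.

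Probe set 1438940_x_at read the same gene at 1762 and 3922 in Icsbp-deficient GMP and at 3603 and 6757 in wild type GMP, again in the order 430A and MOE430_2. The Icsbp-deficient array was the lower of the pair within each type, while the MOE430_2 array of Icsbp-deficient GMP was above the 430A array of wild type GMP. Its log2 ratios were -1.01 and -0.84, with a mean of -0.93 ± 0.11, or 1.90-fold lower. Probe set 1455897_x_at gave 1622 and 2424 in Icsbp-deficient and 3991 and 4362 in wild type GMP, with no overlap between the genotypes. Its log2 ratios were -1.27 and -0.85, with a mean of -1.06 ± 0.13, or 2.08-fold lower. A lack of overlap also compares signals across array types, and its share among all tested probe sets was not computed. Hmgn1 was chosen on these values, so the lack of overlap is a description only.

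The 3 probe sets agreed more closely on the MOE430_2 arrays, where their ratios ran from -0.85 to -0.83, than on the 430A arrays, where they ran from -1.27 to -0.76. Of all tested probe sets, 1.37%, 0.965% and 0.722% had a mean ratio at or below those of 1422495_a_at, 1438940_x_at and 1455897_x_at. Hmgn1 was chosen for being low in this comparison, so this rank describes the choice and nothing is read from it. With array type left out of the model 0 Hmgn1 probe sets were called, and without the intensity trend 2 were, with 1422495_a_at no longer past the threshold. The direction was the same in all 16 alternative settings. These reuse the arrays on which Hmgn1 was chosen and include the 2 within-type ratios, so nothing is read from this. The 2 probe sets whose names end in x can by their design also catch near-identical transcripts, and Hmgn genes have many processed copies in the mouse genome.

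The other Hmgn1 probe set, 1422496_at, was not tested because it lay under the filter. Its scaled signals were 5.09 and 10.7 in Icsbp-deficient GMP and 29.9 and 19.95 in wild type GMP, all below the offset of 50, so no fold is given.

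**Figure D1:**
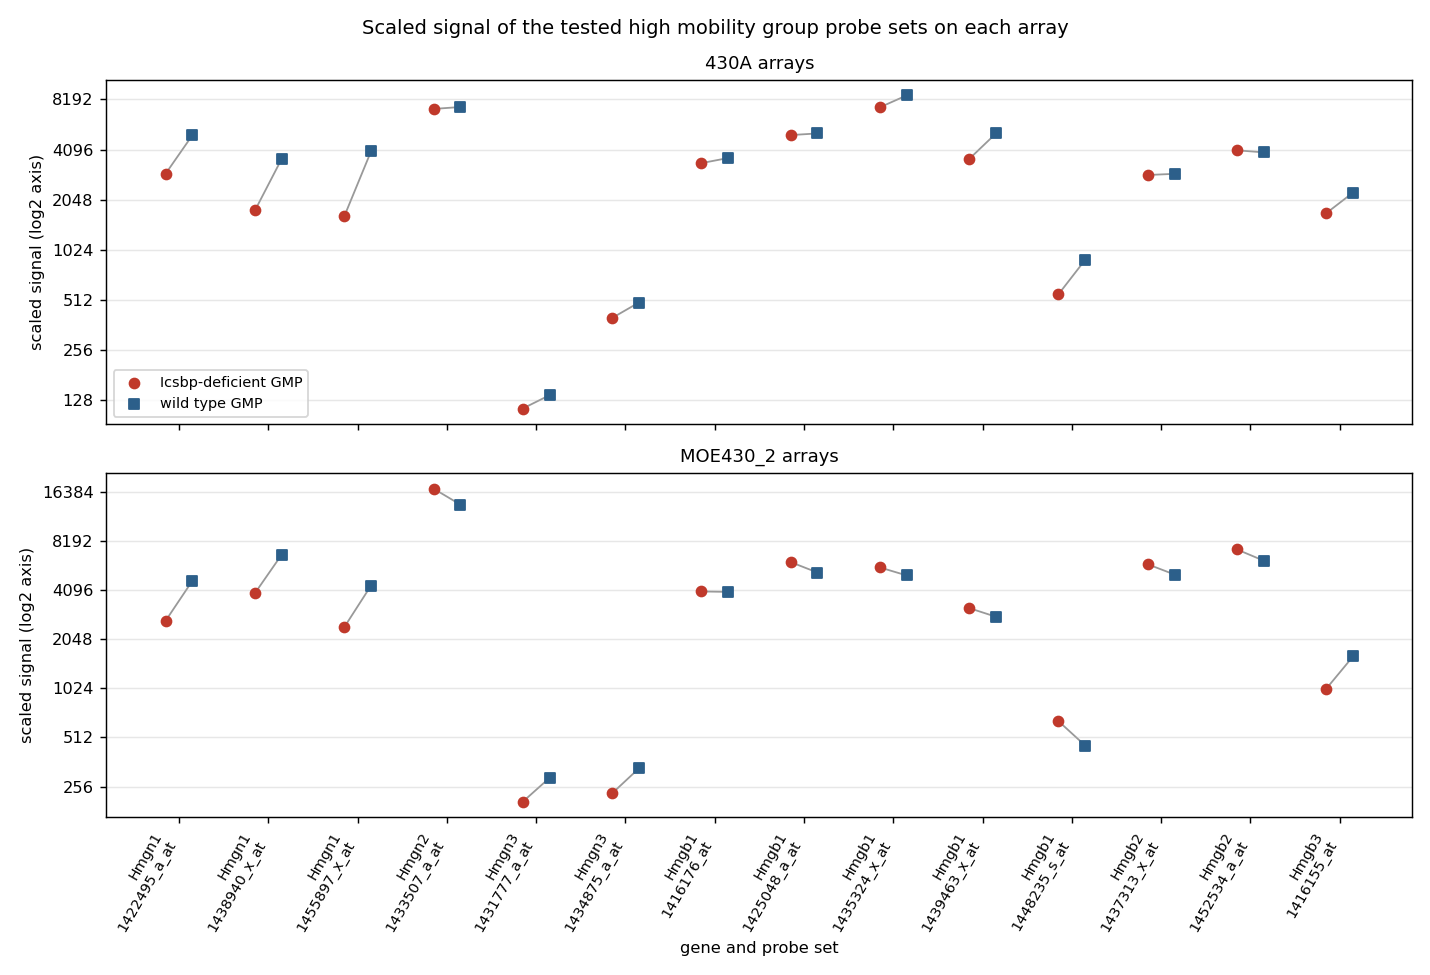
Scaled signal (log2 axis) of each tested high mobility group probe set, with the 430A arrays in the upper and the MOE430_2 arrays in the lower panel; each point is 1 array, circles are Icsbp-deficient and squares wild type GMP, and a line joins the arrays of a type. For the 3 Hmgn1 probe sets the circle lies below the square in both panels, as with 2934 against 5000 for 1422495_a_at on the 430A arrays, while the Hmgb1 and Hmgb2 pairs are nearly level or change direction between panels.

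Hmgn2, which encodes the closest relative of HMGN1 and binds nucleosomes in the same way, was read by 1 probe set, 1433507_a_at. Its platform annotation also lists Gm7931, Gm9525 and Gm6750, so its signal cannot be assigned to Hmgn2 alone. Scaled signals were 7182 and 17130 in Icsbp-deficient GMP and 7375 and 13680 in wild type GMP on the 430A and MOE430_2 arrays. The arrays differed more by type than by genotype. The mean log2 ratio was -0.03 ± 0.09 (limma adjusted p = 0.903), with a 95% interval from -0.23 to 0.17. With scaling alone it was 0.14 and with cyclic loess 0.06, so its sign depends on the normalization.

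Hmgn3 encodes another HMGN protein, known in mice from the eye and the brain. Its probe set 1434875_a_at had scaled signals of 397.9 and 232.6 in Icsbp-deficient GMP and 492.5 and 331 in wild type GMP. Probe set 1431777_a_at had 113.7 and 206.8 in Icsbp-deficient and 136.7 and 289.8 in wild type GMP. Within each type the Icsbp-deficient array was the lower on both probe sets. The mean log2 ratios were -0.33 ± 0.16 (limma adjusted p = 0.301) and -0.27 ± 0.19 (adjusted p = 0.49). Their 95% intervals, from -0.69 to 0.02 and from -0.69 to 0.14, include 0.

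Hmgb1, the most widely known member of its branch, bends DNA in the nucleus and signals through receptors when it leaves the cell. All 5 of its probe sets also list Gm21596, and 1448235_s_at lists 4932431P20Rik as well, so their signals are shared with these loci. Probe set 1425048_a_at had scaled signals of 5001 and 6078 in Icsbp-deficient GMP and 5117 and 5246 in wild type GMP, and 1416176_at had 3392 and 4017 in Icsbp-deficient and 3641 and 3992 in wild type GMP. These values overlapped between the genotypes.

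Mean log2 ratios of the 5 Hmgb1 probe sets ran from -0.19 to 0.03, with limma adjusted p from 0.584 to 0.912. All 5 were lower in Icsbp-deficient GMP on the 430A arrays, by log2 ratios of -0.66 to -0.05, and 4 were higher on the MOE430_2 arrays. The widest gap was at 1448235_s_at, with 552.3 in Icsbp-deficient against 890.7 in wild type GMP on the 430A arrays and 644.7 against 456.3 on the MOE430_2 arrays. The narrowest 95% interval, that of 1425048_a_at, ran from -0.20 to 0.26.

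Hmgb2, an HMG-box protein abundant in dividing cells, was read by 1452534_a_at at 4052 and 7262 in Icsbp-deficient GMP and at 3936 and 6196 in wild type GMP. Probe set 1437313_x_at gave 2879 and 5892 in Icsbp-deficient and 2925 and 5101 in wild type GMP. The mean log2 ratios were 0.08 ± 0.10 (limma adjusted p = 0.717, 95% interval from -0.14 to 0.31) and 0.05 ± 0.11 (adjusted p = 0.862, from -0.19 to 0.29). Probe set 1438307_at is on the larger array only and had 130.8 in Icsbp-deficient and 148 in wild type GMP, a log2 ratio of -0.13 from 1 array per genotype and with no test.

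Hmgb3, known in mice from blood stem and progenitor cells, was read by 1416155_at at 1697 and 1019 in Icsbp-deficient GMP and at 2259 and 1608 in wild type GMP. The Icsbp-deficient array was the lower within each type, while the genotypes overlapped across types. The log2 ratios were -0.39 (430A) and -0.61 (MOE430_2), and the mean of -0.50 ± 0.13 did not pass the test over all probe sets (limma adjusted p = 0.0625, 95% interval from -0.79 to -0.20). It passed with scaling alone (adjusted p = 0.0343) and with the 60th percentile filter (adjusted p = 0.0474), and its adjusted p ran from 0.0343 to 1 over all alternatives with a test. Among the 11 tested probe sets of members other than Hmgn1, limma called 0, beside 5.13% of all tested probe sets. At an unadjusted p under 0.05 there was 1 lower, Hmgb3, and 0 higher, beside 2522 of all 13576 tested probe sets in either direction. Their median log2 ratio was -0.08, beside -0.01 over all tested probe sets.

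**Figure D2:**
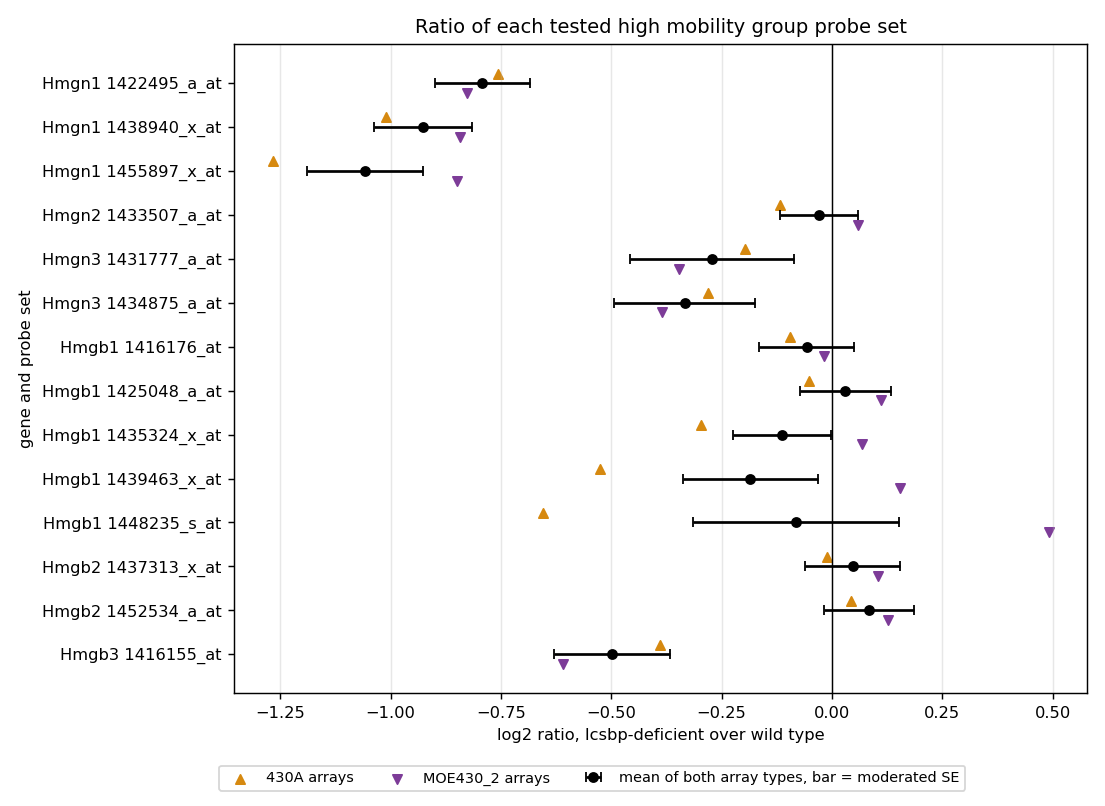
Log2 ratio of Icsbp-deficient over wild type GMP for each tested probe set; triangles are the 2 array types, and the circle and bar are their mean and moderated standard error (n = 2 ratios). The Hmgn1 means lie between -1.06 and -0.79, Hmgb3 at -0.50, and the 2 Hmgb2 means at 0.05 and 0.08.

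**Figure D3:**
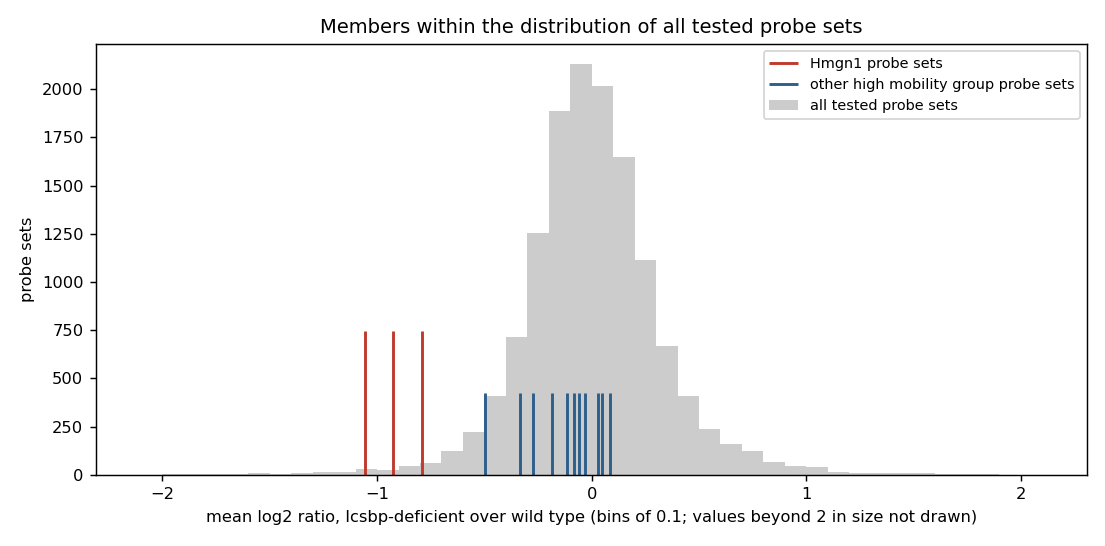
Number of probe sets (y axis) by mean log2 ratio of Icsbp-deficient over wild type GMP (x axis, bins of 0.1) for all 13576 tested probe sets, with tall lines at the 3 Hmgn1 probe sets and short lines at the other 11. The Hmgn1 lines stand in the left tail at -1.06, -0.93 and -0.79, where the choice of Hmgn1 for low values put them, and the others lie between -0.50 and 0.08.

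Related genes were read at 1 probe set each, the tested one with the highest mean signal, from lists that hold other HMG and HMG-box proteins, nucleosome partners, receptors and binders of HMGB1, and replication and mitosis genes. Over all 7820 genes read this way, limma called 5.6%, with 3.26% higher and 2.34% lower, and the median log2 ratio was -0.01. Of 15 tested genes for other HMG and HMG-box proteins 1 fell and 0 rose, with 1 each way at an unadjusted p under 0.05 and a list median of -0.15. The gene that fell was Sox4, an HMG-box transcription factor of progenitors that is also among the stem and multipotent markers called lower. It had 1367 and 1964 in Icsbp-deficient and 2153 and 3743 in wild type GMP, a log2 ratio of -0.77 ± 0.13 (limma adjusted p = 0.00884). The Sox4 call ended without the intensity trend (adjusted p = 0.0696) and without the block (adjusted p = 1). The list median ran from -0.18 to -0.03 when 1 array was left out, and was nearest to 0 without the Icsbp-deficient MOE430_2 array. Hmgn5, another nucleosome-binding HMGN protein, was at -0.17 ± 0.12 (adjusted p = 0.514). Pbrm1, a chromatin remodeller subunit with an HMG box, was at -0.11 ± 0.15 (adjusted p = 0.755).

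Of 24 tested genes for histones, histone chaperones and nucleosome-binding proteins 1 fell and 0 rose (limma), and 6 were lower and 1 higher at an unadjusted p under 0.05. The list median was -0.14, and 19 of the 24 ratios were below 0. Taken within each array type, this median came to -0.148 (430A) and -0.142 (MOE430_2). Fits that leave out 1 array have no term for array type, so genotype and array type are mixed in them. There the median was 0.03 without the wild type MOE430_2 array and -0.03 without the Icsbp-deficient 430A array. It was -0.27 without the Icsbp-deficient MOE430_2 array and -0.39 without the wild type 430A array. H1f10, a linker histone of the class that HMGN proteins compete with, fell to 76.3 and 53.3 in Icsbp-deficient GMP, against 192.9 and 154.9 in wild type GMP. Its log2 ratio was -0.95 ± 0.21 (adjusted p = 0.03), and its Icsbp-deficient signals lay near the offset of 50, so the ratio understates the difference. The H1f10 call ended without the filter on low signals (adjusted p = 0.12) and without the block (adjusted p = 1), and under the 60th percentile filter the gene was not tested. Hist1h1c, another linker histone gene of the list, went the other way without passing, at 0.532 ± 0.145 (adjusted p = 0.0702). It had 954 and 835.4 in Icsbp-deficient and 604 and 608 in wild type GMP. Npm1, a nucleolar histone chaperone, was at -0.05 ± 0.11 (adjusted p = 0.834), and the nucleolar protein gene Ncl at -0.32 ± 0.09 (adjusted p = 0.0724). Ncl passed only under the 60th percentile filter (adjusted p = 0.0471). It was at -0.18 with scaling alone (adjusted p = 0.476) and at -0.25 with cyclic loess (adjusted p = 0.149), so its size depends on the normalization.

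Among 8 tested genes for proteins that bind extracellular HMGB1, 2 fell and 0 rose with limma, and 1 was higher at an unadjusted p under 0.05. Cd24a, a surface glycoprotein that binds HMGB1 and dampens the response to it, had 1360 and 2521 in Icsbp-deficient and 3924 and 7688 in wild type GMP. That is 2.98-fold lower at -1.58 ± 0.11 (adjusted p = 9.68e-05). Thbd, the thrombomodulin gene, whose protein captures HMGB1, had 80.2 and 100.2 in Icsbp-deficient against 281.7 and 225.3 in wild type GMP, at -1.08 ± 0.21 (adjusted p = 0.017). The chemokine receptor gene Cxcr4 was at 0.30 ± 0.13 (adjusted p = 0.268) and Tlr2, a receptor of the innate immune system, at 0.11 ± 0.16 (adjusted p = 0.779). The call of Thbd ended without the filter (adjusted p = 0.0982), and the 60th percentile filter left it untested, so that Cd24a was the 1 gene called in both settings. Without the block neither was called (adjusted p = 0.912 for Cd24a and 1 for Thbd). The list median was 0.11, and taken within each array type it came to 0.119 (430A) and 0.023 (MOE430_2). In the fits that leave out 1 array, which mix genotype with array type, it was -0.10 without the Icsbp-deficient 430A array. It was 0.02 without the wild type MOE430_2 array. Ager, the receptor first tied to HMGB1, was under 50 on all 4 arrays.

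Replication and mitosis genes are given beside the members because several high mobility group proteins are abundant in dividing cells. Limma called 0 of 22, and at an unadjusted p under 0.05 there were 6 lower and 0 higher. In all, 21 of the 22 ratios were below 0 and the list median was -0.13, beside -0.01 over all genes. The median was -0.06 without the wild type MOE430_2 array and -0.22 without the wild type 430A array. Pcna, the replication clamp, was at -0.21 ± 0.09 (limma adjusted p = 0.23) and Mcm7, a subunit of the replicative helicase, at -0.13 ± 0.09 (adjusted p = 0.472). On the MOE430_2 arrays Pcna had scaled signals of 13010 in Icsbp-deficient against 12590 in wild type GMP, and Mcm7 10290 against 10120. Their ratios there, -0.173 and -0.154, are below 0 only after the quantile step. With scaling alone the list median was -0.126. The shifts of the replication and mitosis genes are smaller than those of Hmgn1, and their part in the Hmgn1 values was not tested.

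**Figure D4:**
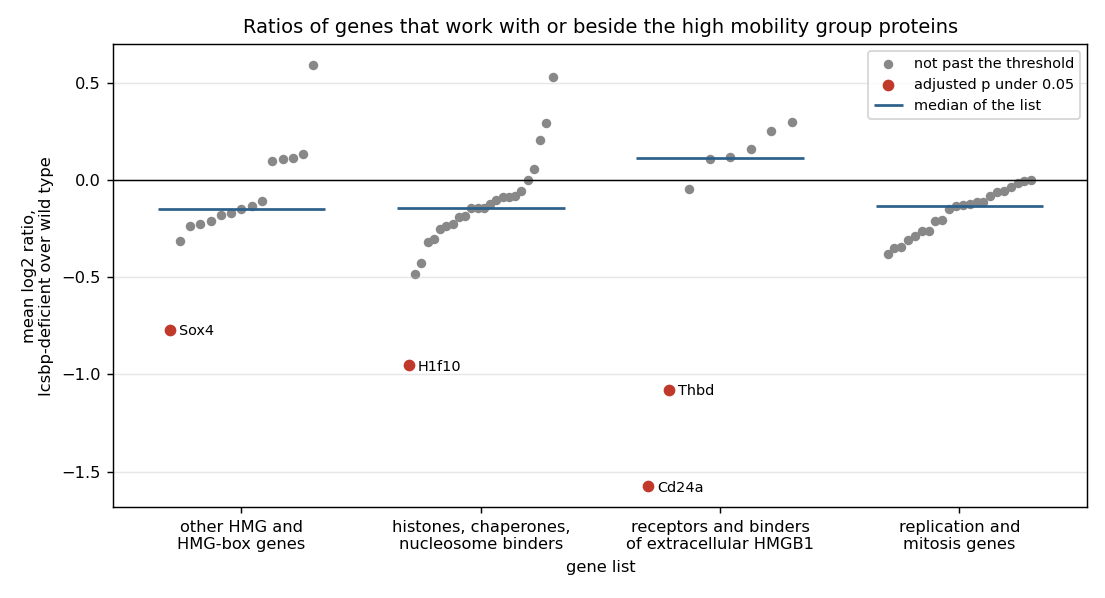
Mean log2 ratio of Icsbp-deficient over wild type GMP (y axis) for each tested gene of the 4 lists (x axis); red points had a limma adjusted p under 0.05 and the blue line is the list's median. Sox4, H1f10, Thbd and Cd24a are the 4 genes past the threshold, and all 4 lie below 0.

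The 5 genes whose pair of ratios lay nearest to that of Hmgn1 probe set 1422495_a_at, by Euclidean distance over the 2 array types, were Slco3a1, Cxxc5, Got1, Psat1 and Gstm5, at distances of 0.02 to 0.10 on the log2 scale. Psat1, an enzyme of serine synthesis, had 2016 and 1364 in Icsbp-deficient and 3419 and 2583 in wild type GMP. Got1, the cytosolic aspartate aminotransferase, had 449.3 and 446.4 in Icsbp-deficient and 795.7 and 820.3 in wild type GMP. Such a likeness rests on 4 arrays.

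The tested genes next to Hmgn1 on chromosome 16 were read as well, chosen after the Hmgn1 values were known. The nearest before it in the RefSeq order were Brwd1 at -0.13 ± 0.23, Psmg1 at -0.29 ± 0.12 and Ets2 at 0.43 ± 0.19, and after it Itgb2l at 0.33 ± 0.24 and Zbtb21 at -0.01 ± 0.23. None of these 5 passed the test, with limma adjusted p from 0.247 to 0.989.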

How the data were processed

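Total RNA from sorted GMP was hybridised to 4 Affymetrix arrays. The deposited files hold linear signal intensity, 1 value per probe set and array. Per the submitters' processing notes, GCOS was used for the MOE430_2 arrays. The sources used here do not give its version and settings or the software of the 430A arrays. Trimmed means of the deposited signals were 167.1 on the Icsbp-deficient and 498.5 on the wild type 430A array, and 158.6 and 160.4 on the MOE430_2 arrays, so the 430A arrays were not on a common scale.

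Of 22690 shared probe sets 64 controls were left out. Signals were brought to a common trimmed mean of 500 (2% from each end) over the remaining 22626, converted to log2 with an offset of 50, and quantile normalized between the 2 arrays of a type. The 9050 probe sets under the 40th percentile of mean signal were not tested. The test was limma 3.58.1 in R 4.3.3 (two-sided, with an intensity trend and array type as a block), adjusted by Benjamini-Hochberg over 13576 probe sets. It leaves 1 residual degree of freedom, to which 8.89 prior degrees of freedom were added. That number is itself imprecise, and the number of arrays limits the precision throughout. The fit was tested on simulated data, where in most of the runs the share of false calls among all calls was above the threshold of 0.05, so an adjusted p here can understate the rate of false calls.

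Symbols come from the platform annotation. Of the shared probe sets 20380 had 1 symbol, 691 several and 1555 none, and 20351 matched RefSeq (GRCm38.p6), which was used for current names and gene order. The members, the lists and the tests were chosen with earlier results of these data known. By rule, the named genes are all member probe sets, from each list other than the marker lists the called genes and the 2 of highest signal not called, and the 5 genes nearest to Hmgn1. The neighbours of Hmgn1, single genes of the marker lists, list genes under 50 on all arrays and genes called in an alternative alone were named outside this rule, after their values were seen. Nothing says whether the preparations shared a sorting day, so p-values measure the spread between these samples only.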

Additional observations from a re-analysis of the deposited data

How the results depend on the processing

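The 3 Hmgn1 ratios stayed below 0 in all 16 alternatives, from -1.80 to -0.37, and so did Hmgb3, from -1.25 to -0.15. Nothing is read from the Hmgn1 signs, since Hmgn1 was chosen on these arrays. All alternatives reuse the same arrays and include the within-type ratios, which for Hmgb3 were -0.39 (430A) and -0.61 (MOE430_2). The constant sign of Hmgb3 is therefore no added support. The lowest values, -1.80 and -1.25, came from the values as deposited, which lowered the ratio of every tested member probe set. The values as deposited, in which the 430A arrays are on different scales, gave 0 probe sets called in either direction, 0 of them members. Without the replicate block, that is with array type left out of the model, 0 probe sets rose and 1 fell, and 0 of the members did. Leaving out each array in turn in that model gave 22, 23 or 25 probe sets higher, 14, 20, 24 or 30 lower and 0 of the members, with the lone array of a genotype assumed to vary like the others. Without the filter 169 rose and 97 fell, and without the intensity trend 147 rose and 120 fell, against 406 and 290. Without the trend 2 of the 3 Hmgn1 probe sets were called, and nothing is read from this either. Among nucleosome partners, Hist1h1c was called higher only with the 60th percentile filter (adjusted p = 0.044) and Nasp lower only with scaling alone (adjusted p = 0.0479). In the main limma fit their adjusted p were 0.0702 and 0.0755. With the values as deposited Hist1h1c was at -0.23, the other direction. The cause of these changes was not tested.

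Ratios of members near 0 changed sign. Hmgn2 was at 0.143 with scaling alone and 0.061 with cyclic loess. With the values as deposited Hmgb1 (1425048_a_at) was at -0.695 and Hmgb2 at -0.682 (1437313_x_at) and -0.647 (1452534_a_at). The fits with 1 array left out have no term for array type, so their ratios mix genotype with array type. Within the array types, Hmgn3 1431777_a_at and Hmgb1 1416176_at were below 0 on both and Hmgb2 1452534_a_at above 0 on both. The other probe sets named next changed sign between the array types. Leaving out 1 array, the sign turned for Hmgn2 1433507_a_at (0.554 and 0.465), Hmgn3 1431777_a_at (0.069 and 0.143), Hmgb1 1416176_at (0.052 and 0.014), Hmgb1 1448235_s_at (0.03 and 0.378), Hmgb1 1425048_a_at (-0.088 and -0.006), Hmgb1 1435324_x_at (0.085 and 0.267), Hmgb2 1437313_x_at (-0.436 and -0.378), Hmgb2 1452534_a_at (-0.304 and -0.261), Hmgb1 1439463_x_at (0.246). None of these passed the test in any setting.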
